A study of Saccharomyces cerevisiae with 26 samples.

Results

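The ribosomal DNA (rDNA) locus of Saccharomyces cerevisiae chromosome XII held 614 of the 223663 runs of A-rich positions that were masked in this 3′ end sequencing study. Members were all runs of the list that start on chromosome XII between positions 450001 and 491000 of the sacCer3 genome, on either strand, and 312 of them lay on the minus strand and 302 on the plus strand. The list was made from the genome sequence alone, so its counts and shares carry no replicates and no sampling error, and no test was applied to them.

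The study mapped RNA 3′ ends in 26 libraries from 2 anchor-away strains, 14 from Mex67-AA and 12 from Nab2-AA, in which rapamycin draws the FRB-tagged export factor Mex67 or the FRB-tagged poly(A)-binding protein Nab2 out of the nucleus. Both strains are of the W303 background and share the tor1-1 allele, a disrupted fpr1 gene and RPL13 fused to FKBP12, and 12 libraries came from cells given rapamycin for 15 min. Libraries were made from total RNA or from RNA labeled with 4-thiouracil (4tU) for 2 min, 9 of them without (pA+) and 17 with (pA+,-) prior tailing by E. coli poly(A) polymerase and rRNA depletion, and 2 were mock purifications from cells without 4tU. Priming on an A-rich stretch inside an RNA gives a read that looks like a polyadenylated 3′ end, and the masked positions are those just upstream of such stretches on the same strand. By the written criteria a position was removed when A made up more than 4 of the next 6 bases and the others were G, or more than 12 of the next 18 bases.

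In the rDNA, RNA polymerase I transcribes the 35S pre-rRNA, which is cut into the 18S, 5.8S and 25S rRNAs while its external and internal transcribed spacers (ETS and ITS) are removed. Each repeat also carries a 5S rRNA gene, transcribed by RNA polymerase III from the opposite strand, and 2 non-transcribed spacers: NTS1 lies downstream of the 35S gene and holds the replication fork barrier, and NTS2 lies upstream of it and holds a replication origin (ARS). Transcripts of RNA polymerase III end in runs of U, and T-rich stretches are also found at terminators of RNA polymerase I, so that the strand opposite to such a terminator is rich in A. The reference sequence holds 2 repeats of the long tandem array of living cells, both with the 35S gene on the minus strand. To their right, 5S genes alternate with the 4 copies of ASP3, which encodes the cell-wall asparaginase induced by nitrogen starvation. Whether the strains of the libraries hold the same copies was not examined.

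The 3 longest masked runs of the locus lay just downstream of RNA 3′ ends, on the strand opposite to the RNA. Of these, the runs of 34 bp downstream of the 35S genes are copies of the same sequence. The runs next in length, of 25, 22 and 20 bp, lay further inside NTS1 or in a Ty1 retrotransposon. The sequences below are those of the longest run on each strand in the 35S gene and in its spacers. They also show the 3′ ends of 18S and 25S and the runs that differ between 5S copies. The last sequence shows the masked position inside the 5S gene, which is the same in all copies. Each is written 5′ to 3′ on the strand of the run with masked positions in capitals, from R64 (the RefSeq assembly that holds the sacCer3 sequence).
35S downstream, plus strand, chrXII:451531-451582: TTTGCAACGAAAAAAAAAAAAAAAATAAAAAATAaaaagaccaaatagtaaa
3′ ETS, plus strand, chrXII:451766-451802: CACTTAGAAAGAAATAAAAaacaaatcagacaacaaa
5′ ETS, plus strand, chrXII:457752-457788: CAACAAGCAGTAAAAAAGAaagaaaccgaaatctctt
5′ ETS, minus strand, chrXII:457771-457805: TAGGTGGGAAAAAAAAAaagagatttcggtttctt
18S end, minus strand, chrXII:455918-455947: gcggaaggatcatTAaagaaatttaataat
25S end, minus strand, chrXII:451771-451800: tgttgtctgatttgttttttatttctttct
RDN5-1 downstream, minus strand, chrXII:459788-459845: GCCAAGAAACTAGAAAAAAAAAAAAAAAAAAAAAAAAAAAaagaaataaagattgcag
RDN5-2 downstream, minus strand, chrXII:468922-468949: TGCGCGAAAAaaaaaacaactgcagcac
RDN5-6 downstream, minus strand, chrXII:489455-489487: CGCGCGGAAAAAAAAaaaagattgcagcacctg
RDN5-1 gene, plus strand, chrXII:459694-459712: Cagaaagcaccgtttcccg

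Both strands of the locus were masked to a similar extent, and both less than the rest of the chromosome. On the minus strand, 906 positions or 2.21% of the 41000 bp were masked, against 2.65% in the rest of chromosome XII. On the plus strand, 849 positions or 2.07% were masked, against 2.60% in the rest. For both strands together the share was 2.14% in the locus and 2.62% in the rest, a difference of -0.483 percentage points. The locus also held fewer runs, 7.49 per kb of sequence per strand against 9.24 in the rest. It had less A as well, 28.9% of its bases against 30.8%, and the part of base composition in the lower masked share was not tested.

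The locus was at the low end of the chromosome. Among 24 tiles of 41000 bp cut from the rest of chromosome XII, the masked share of both strands ran from 2.28% to 2.91% with a median of 2.67%, and 0 tiles were below the locus. With the tiles shifted by 20500 bp, 1 of 23 was below it, at 2.14%, so that the locus was among the lowest stretches rather than below each of them. On the minus strand alone 1 of the 24 tiles was below the locus, and on the plus strand 3 were. The share of A in the locus was below that of all 24 unshifted tiles, which ran from 29.8% to 31.8%.

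**Figure D1:**
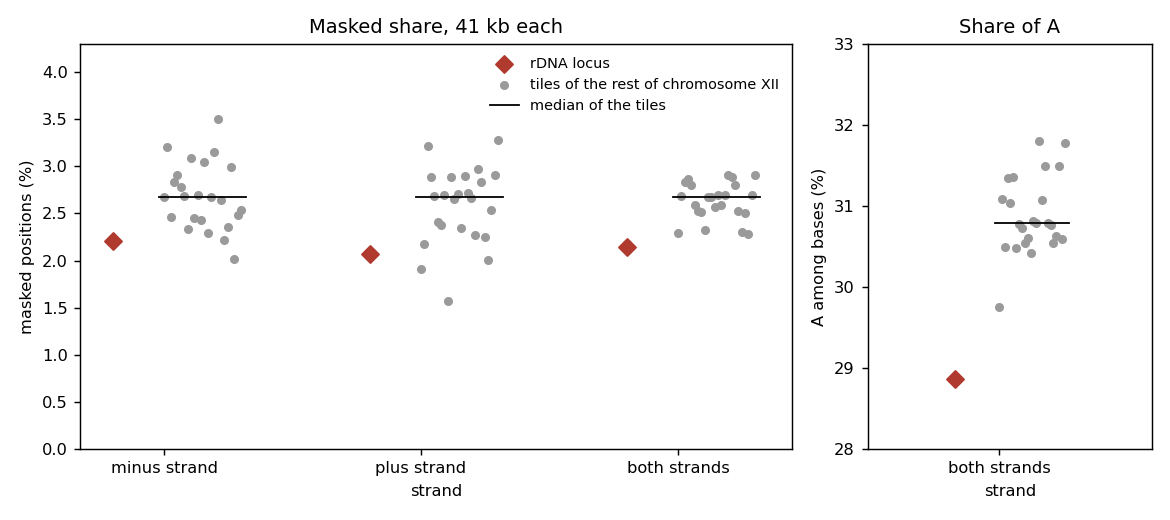
Masked share of positions (left, percent, by strand) and share of A among bases (right, percent, axis cut at 28) in the rDNA locus (red diamond) and in the 24 tiles of 41 kb from the rest of chromosome XII (grey points, spread sideways for display, with their median as a line). The locus lies below the tiles for both strands together and for the share of A, and within the range of the tiles on each single strand.

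Runs of the locus were about as long as those elsewhere on the chromosome. Their median was 2 bp, and 47.7% were 1 bp long, against 45.6% in the rest of chromosome XII. Runs of at least 10 bp made up 4.07% in the locus (25 runs) and 4.18% in the rest, and runs of at least 20 bp 0.977% (6 runs) and 1.07%. The longest run of the locus was 40 bp, and the longest in the rest was 82 bp. Of the 1755 masked positions of the locus, 818 or 46.6% met the written criteria, 51.3% had exactly 4 As of 6 or 12 As of 18, and 2.11% met neither. In the rest these shares were 44.7%, 52.5% and 2.85%.

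The masked positions were unevenly divided among the parts of the locus. The 2 copies of the 35S gene took up 33.5% of its length and 24.5% of its masked positions. The 3 annotated NTS stretches took up 8.30% of the length and 18.1% of the masked positions. The ASP3 genes together with the sequence around them made up 34.5% of the length and 37.4% of the masked positions. The interval also holds a Ty1 retrotransposon, YLRCTy1-1, with 14.4% of the length and 8.66% of the masked positions, and short flanks on either side. By bins of 500 bp, the highest share on the minus strand was 9.20%, in the bin that holds RDN5-1 and the first part of NTS1-2. On the plus strand it was 11.4%, in the bin that spans the border of NTS1-2 with the 3′ ETS of RDN37-2.

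**Figure D2:**
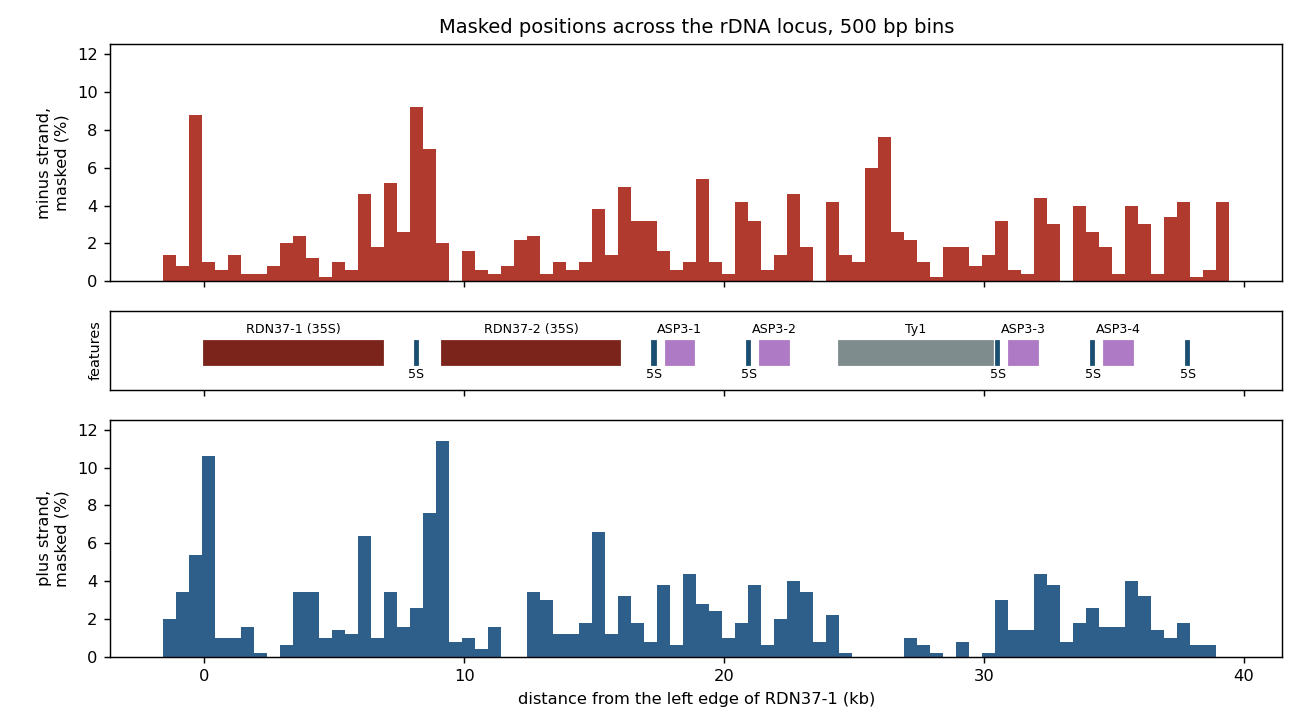
Masked positions in bins of 500 bp (percent of the bin) on the minus strand (top, red) and the plus strand (bottom, blue), by distance in kb from the left edge of RDN37-1, with the annotated genes between them. The tallest bars stand around the spacer downstream (left) of each 35S gene, with up to 9.20% on the minus strand and 11.4% on the plus strand, and the plus strand is nearly empty along Ty1.

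Next, the transcribed parts were set against the spacers between them. In the 35S and 5S genes together, 436 positions of 14434 bp were masked, or 1.51% of both strands, against 4.66% in the NTS stretches, a difference of -3.15 percentage points. The spacer share was carried by NTS1. NTS1-2, of 915 bp between RDN5-1 and RDN37-2 (chrXII:459797-460711), was masked at 88 positions or 9.62% of the minus strand and at 85 positions or 9.29% of the plus strand. Its share over both strands of 9.45% was above all 1132 tiles of this length in the rest of chromosome XII, which reached 9.13% with a median of 2.35%. The share of A in NTS1-2 was 35.3% on the minus strand and 27.0% on the plus strand. Over both strands it was 31.1%, against a tile median of 31.0%.

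Long runs accounted for much of NTS1-2. On the plus strand, 79 of the 85 masked positions were in 3 runs of 34, 25 and 20 bp. On the minus strand, 40 of the 88 were in the 1 run downstream of RDN5-1, and the other runs were 8 bp or shorter.

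NTS2 was closer to the rest of the chromosome. In NTS2-1 (chrXII:458433-459675) 44 positions or 3.54% of the minus strand and 28 or 2.25% of the plus strand were masked, and its 2.90% over both strands was above 551 of 834 tiles of this length. Its longest runs were 9 bp on the minus strand and 8 bp on the plus strand. The origin ARS1200-1 within it (chrXII:458991-459097) had 8 masked positions on the plus strand, or 7.48%, all in 1 run, and 3 on the minus strand. By the written criteria it had 2 on each strand. With the array divided at the left edge of each 35S gene, NTS1-2 falls to the first copy and the second has NTS2-2 as its only annotated spacer. The difference of transcribed minus spacer sequence was -4.13 percentage points in the first copy and -1.35 in the second.

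The core recognition sequence TTACCC of Reb1, a DNA-binding protein that takes part in ending transcription, was searched on both strands of the spacers. NTS2-1 held 1 match, on the minus strand at chrXII:458639-458644, 207 bp upstream of the 35S start, and NTS2-2 held the same at chrXII:467776-467781. No position of the match was masked, and the nearest masked positions were 17 bp away on the minus strand and 38 bp on the plus strand. NTS1-2 held 0 matches, and the 35S gene with its 3′ ETS was not searched. In the rest of chromosome XII, 35.5% of stretches of the length of NTS2 and 27.1% of those of the length of NTS1-2 held at least 1 match, so a match at this length was common.

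Within the 35S gene, the mask depended on the part and on the strand. One copy has 6858 bp (RDN37-1, chrXII:451575-458432), of which 85 positions or 1.24% were masked on the minus strand, which is the sense strand, and 130 or 1.90% on the plus strand. The difference of sense minus antisense was -0.656 percentage points. Over both strands, the 1.57% of a copy was above 4 of 150 tiles of its length, whose shares ran from 1.41% to 4.16%. The share of A in a copy was 27.0% on the minus strand and 28% on the plus strand, and over both strands it was below that of all 150 tiles.

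The strand difference lay in the spacers that are removed from the pre-rRNA. Over the 1504 bp of external and internal transcribed spacers of a copy, 2.46% of sense and 5.78% of antisense positions were masked, a difference of -3.32 percentage points. Over the 5354 bp of mature rRNA, 48 sense positions (0.897%) and 43 antisense positions (0.803%) were masked, which turned the difference to 0.0934 percentage points. The share of A was 28.4% on the sense strand and 33% on the antisense strand of the removed spacers, and 26.6% on either strand of the mature rRNA.

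The 4 spacers each had more masked antisense than sense positions in the deposited list. By the written criteria the 5′ ETS was nearly even, with 16 sense and 17 antisense positions. The others kept the direction, with 0 sense positions each and 10 antisense positions in ITS1, 8 in ITS2 and 11 in the 3′ ETS. In the deposited list, the 5′ ETS (chrXII:457733-458432) had 27 sense positions (3.86%) and 35 antisense positions (5.0%). ITS1 had 0.831% sense and 4.43% antisense, and ITS2, between 5.8S and 25S, had 2.59% and 7.33%. The 3′ ETS (chrXII:451575-451785) differed most, with 1 sense position (0.474%) and 19 antisense positions (9.0%) that formed a single run, shown above. This run begins, in the direction of 35S transcription, 2 bp past the end of 25S.

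A pair of runs in the 5′ ETS faced each other. The minus run of 17 bp began 627 bp from the 35S start and ended 56 bases before the first base of 18S, and it held 17 of the 27 masked sense positions of the 5′ ETS. The plus run of 19 bp held 19 of its 35 masked antisense positions. They are 18 bases apart, and the bases between them are the unmasked bases in lower case at the end of both sequences above.

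The mature rRNAs were masked in short runs only. In 18S (chrXII:455933-457732), the small-subunit rRNA, 13 sense positions (0.722%) and 20 antisense positions (1.11%) were masked, with longest runs of 2 and 4 bp. In 25S (chrXII:451786-455181), the large-subunit rRNA, 34 sense (1.00%) and 22 antisense positions (0.648%) were masked, with longest runs of 6 and 7 bp. In 5.8S, which pairs with 25S in the large subunit, 1 position was masked on each strand, or 0.633%. In the deposited list 25S thus had more masked sense than antisense positions and 18S fewer, but the direction at 18S turned with the written criteria, which 6 sense and 5 antisense positions met. At 25S 11 sense and 9 antisense positions met them.

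**Figure D3:**
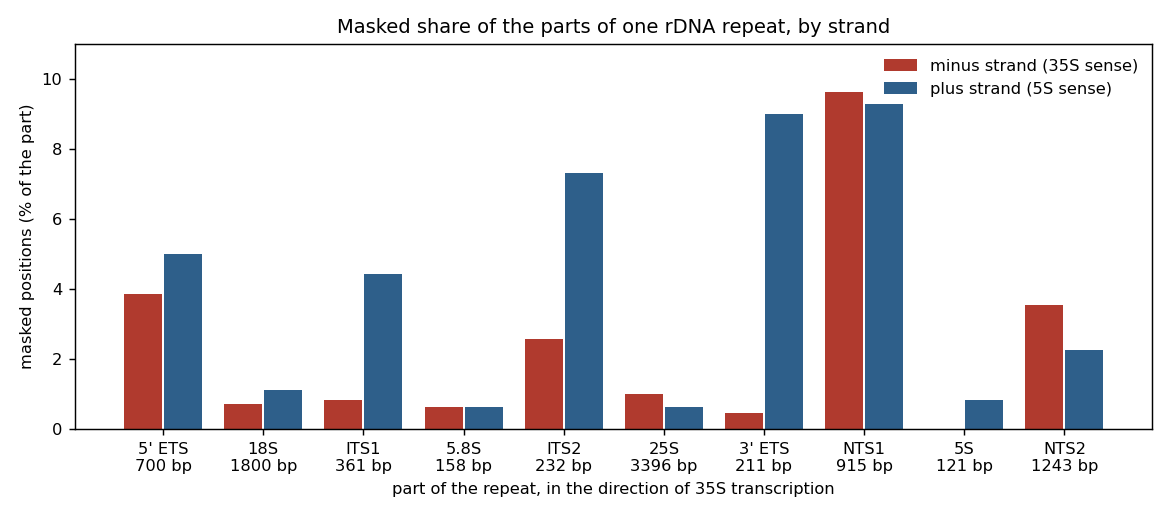
Masked positions in the parts of one rDNA repeat (percent of the part) on the minus strand (red, sense for 35S) and the plus strand (blue, sense for 5S), in the direction of 35S transcription, with the length of each part under its name. The removed spacers of 35S have higher blue than red bars, the mature rRNAs are at 1.11% or lower on either strand, and NTS1 is above 9% on both.

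Protein-coding genes of the same chromosome gave the other direction. Over 501 coding sequences in the rest of chromosome XII, 3.10% of sense and 1.02% of antisense positions were masked, and the sense share was the higher one in 445 genes, the antisense share in 49 (9.78%) and neither in 7. The median difference of sense minus antisense was 1.86 percentage points. The sense share of 35S was above that of 59 of these genes (11.8%) and its antisense share above that of 444 (88.6%). For 18S, 23 genes (4.59%) had a lower sense share, and for 25S 38 genes (7.58%) did. These are ranks among sequences of differing length and composition, and they were not tested.

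**Figure D4:**
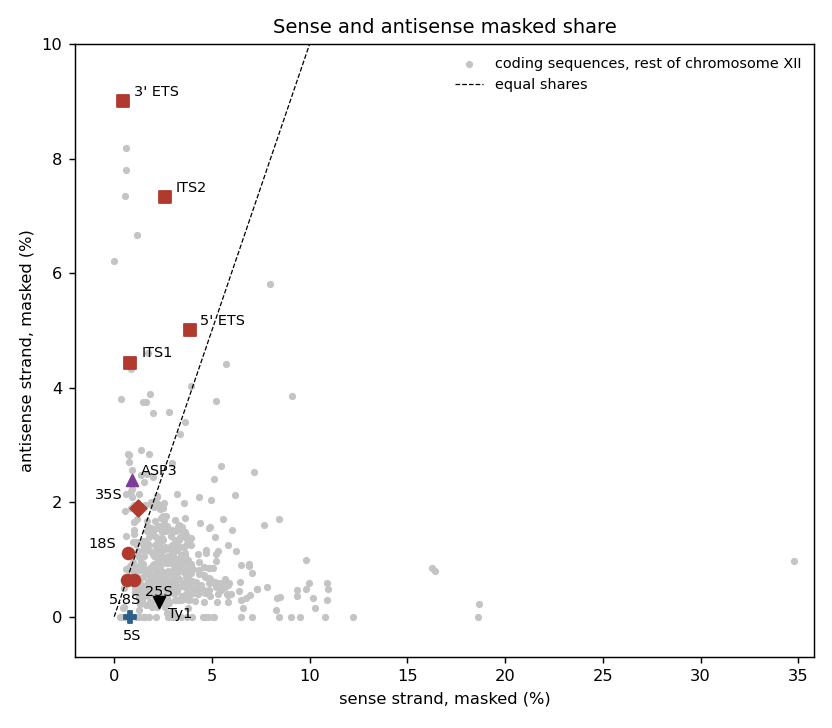
Masked share of the sense strand (x axis, percent) against the antisense strand (y axis, percent, cut at 10) for rRNAs and their spacers, ASP3, 5S and Ty1 (colored symbols) and for 500 of the 501 coding sequences in the rest of chromosome XII (grey points), of which 1 is above the axis. The 4 removed spacers and ASP3 lie above the dashed line of equal shares, and most coding sequences lie below it.

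As the libraries record RNA 3′ ends, the mask was then read at the annotated ends of the mature rRNAs. Of 12 such ends (18S, 5.8S and 25S of both copies and 6 of 5S), 2 were themselves masked, and both were those of 18S, at positions 455933 and 465070. The last 2 bases of 18S were masked in each copy, since the 6 bases after either held 5 As and no C or T, which also meets the written criteria. The first base beyond the end was not masked, with 4 As and 1 C or T in its window.

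The other ends had no masked sense position within 10 bp. At 25S the nearest was 50 bp downstream, and the nearest upstream was 597 bp away. At 5.8S the nearest was 87 bp downstream and 120 bp upstream. At the annotated end of the 35S gene it was 52 bp downstream. Within 50 bp, 4 of the 12 ends had a masked sense position, and within 100 bp 11 of them did. By the written criteria these counts were 2 and 3. The nearest sense position was then 429 bp away at 25S of the first copy and 291 bp at 5.8S. Several of the 12 ends are copies of the same sequence, so the ends are not separate observations. The rest of the chromosome held 9.24 runs per kb of sequence per strand. Whether the counts within 50 and 100 bp differ from those at other positions was not tested.

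In the deposited list, masked runs on the opposite strand lay close behind these ends. The 19 bp run of the 3′ ETS began 2 bp past the end of 25S and the 34 bp run of the spacer 11 bp past the end of 35S. At 5.8S a 2 bp run began 4 bp past the end, and at 18S a 2 bp run 34 bp past it. By the written criteria the nearest antisense position was 6 bp past the end at 25S and 84 bp past it at 5.8S. The distances at 35S and 18S stayed at 11 and 34 bp. Masking is strand-specific, so these runs remove antisense positions and none of the rRNA's own strand.

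**Figure D5:**
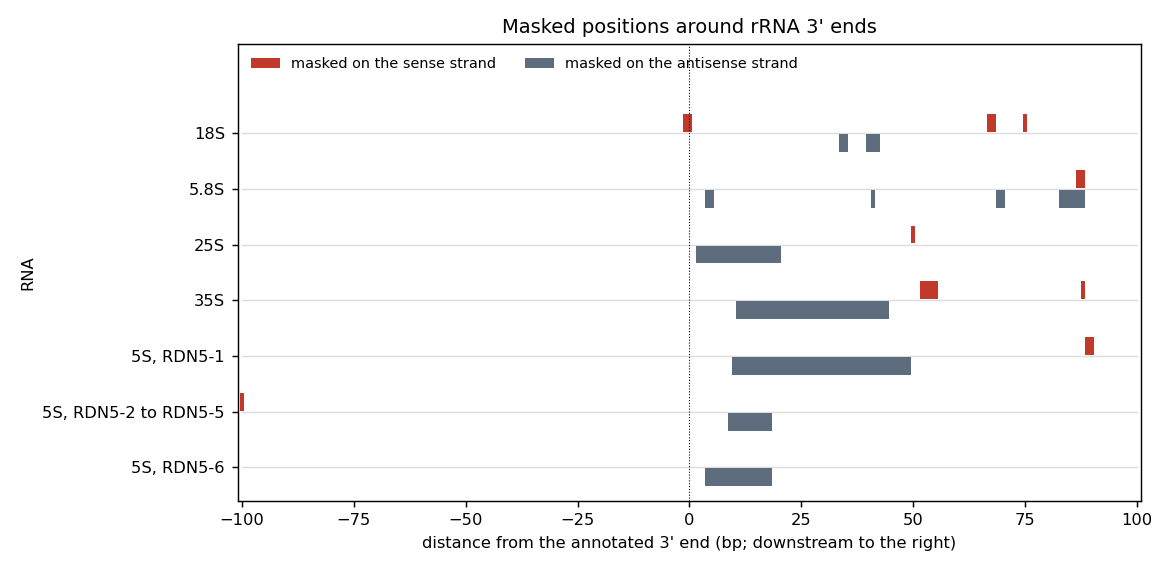
Masked positions from 100 bp upstream to 100 bp downstream of annotated rRNA 3′ ends (x axis, distance in bp from the last base, dotted line), on the sense strand of each RNA (red, above the line) and on the antisense strand (grey, below it). Only 18S has red at its end, while 25S, 35S and all 5S genes have a grey run that begins between 2 and 11 bp past the end.

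The 6 copies of the 5S gene were alike inside the gene and differed behind it. Each copy had 1 masked sense position, at base 19 of the gene (the C in capitals in the RDN5-1 sequence above), and 0 on the antisense strand, and none of the 6 sense positions met the written criteria. RDN5-1 (chrXII:459676-459796) and RDN5-6 (chrXII:489349-489469) are annotated with 121 bp. RDN5-2 to RDN5-5 are annotated with 119 bp and each differs from RDN5-1 by A118G, counted from the first base of the gene with the RDN5-1 base first.

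Behind the genes, the run on the antisense strand was of 3 lengths. It was 40 bp at RDN5-1 and began 10 bp past the gene. At RDN5-2 to RDN5-5 it was 10 bp and began 9 bp past the gene, and at RDN5-6 it was 15 bp and began 4 bp past it. The longest run of T on the 5S strand was searched in the 60 bp behind the gene. It was 29 bp at RDN5-1, 10 bp at RDN5-2 to RDN5-5 and 11 bp at RDN5-6. The mask counts the As that pair with these Ts, so a longer masked run by a longer T run follows from how the mask is made. On the sense strand, the 50 bp behind the gene held 0 masked positions at all 6 copies. The next sense position was 89 bp away at RDN5-1, 115 bp at RDN5-2 to RDN5-5 and 283 bp at RDN5-6.

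The repeat copies of the 35S gene did not differ in the mask. Both copies with their NTS2, 8101 bp each and 9137 bp apart, were identical in the reference, and all masked positions were at the same places, 129 on the minus strand and 158 on the plus strand of each. The agreement of identical sequences adds no evidence, since the mask is computed from the sequence. To the left of RDN37-1, 157 bp (chrXII:451418-451574) repeated the end of NTS1-2 without a base difference. There 37 plus-strand positions, or 23.6%, were masked as in NTS1-2, while on the minus strand 6 were masked against 5 in NTS1-2, which was the only difference.

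The ASP3 coding sequence was also masked identically in its copies. Each of ASP3-1 (chrXII:469317-470405), ASP3-2 (chrXII:472969-474057), ASP3-3 (chrXII:482549-483637) and ASP3-4 (chrXII:486201-487289) has 1089 bp on the minus strand and 0 base differences from ASP3-1. In each, 10 sense positions (0.918%) and 26 antisense positions (2.39%) were masked. By the written criteria these were 0 sense and 7 antisense positions. In the 200 bp after the stop codon, 6 sense positions or 3.00% were masked in each copy.

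For a coding sequence, ASP3 was low on the sense strand and high on the antisense strand. Of the 501 coding sequences in the rest of the chromosome, 35 (6.99%) had a lower sense share and 467 (93.2%) a lower antisense share. The repeat around each gene, of 3652 bp from one 5S gene to the next, had 81 masked positions on the minus strand and 84 on the plus strand in the repeats of ASP3-1, ASP3-3 and ASP3-4. Those of ASP3-3 and ASP3-4 differed from that of ASP3-1 by T3243G, counted from the first base of the repeat with the ASP3-1 base first, and in 0 masked positions. The repeat of ASP3-2 is interrupted by the Ty1 element, and in the 3510 paired positions before it 2 bases differed and 0 masked positions. A further 2 positions had no partner, and over the aligned stretch the plus strand held 85 masked positions in the ASP3-2 repeat against 84 in that of ASP3-1.

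The Ty1 element was masked almost only on its own sense strand. Over its 5922 bp (chrXII:475976-481897), 137 positions or 2.31% were masked on the minus strand, which is that strand, and 15 or 0.253% on the plus strand. The A share was 35.7% on the sense strand and 26.7% on the antisense strand. Its longest run was 22 bp, on the minus strand within YLR157C-B, the gene of its polyprotein, which had 2.45% masked on the sense strand and 0.285% on the antisense strand. Over both strands the element had 1.28%, below all 174 tiles of its length, which ran from 1.33% to 4.32%.

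Among the other genes of the interval, the highest sense share was 7.58%, in YLR154C-H, YLR156C-A, YLR157C-C and YLR159C-A. These are annotated reading frames of 132 bp on the minus strand that overlap RDN5-2 to RDN5-5, and their 10 masked sense positions in each are the 10 bp run behind those 5S genes. The lowest was 0, in YLR154C-G, which lies within 25S, in YLR157W-E and in RRT15. TAR1 (chrXII:454696-455070), which encodes a mitochondrial protein from the strand opposite to 25S, had 3 masked sense positions (0.80%) and 10 masked antisense positions (2.67%).

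Finally, the masked positions were compared with the sequence that reads could be placed on, since the study kept reads that map to 1 place. Of the masked positions of the locus, 297 or 16.9% ended a stretch of 50 bases found only once in the reference genome, against 96.5% in the rest of chromosome XII. Of all positions of the locus, 8.60% did, against 94.4% in the rest. None of the 430 masked positions in 35S, of the 144 in NTS2, of the 144 in ASP3 or of the 6 in 5S was among them. In Ty1 1 of 152 was.

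Of the positions in sequence found once, 134 were in NTS1-2, or 77.5% of its 173 masked positions. The flanks held most of the others, with 104 of 104 masked positions left of the repeats and 39 of 46 right of them. The 50 bases up to the 3′ end of 18S and of 5.8S were found at 2 places in the genome, and those up to the end of 25S at 3. For 5S, they were found at 2 places for RDN5-1 and RDN5-6 and at 4 for RDN5-2 to RDN5-5. How many reads of the libraries ended at these positions was not analysed here.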

How the data were processed

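RNA 3′ ends were measured with QuantSeq REV libraries. The file used here is the mask of A-rich positions, in which the authors deposited coordinates (sacCer3 start, end and strand of each run) and neither scores nor measurements. Per their methods it was derived from the genome sequence and subtracted from their tracks; the criteria given above, as written there, are met by 46.6% of the masked positions of the locus. The labels name STAR, SAMtools 1.3 and HTSeq 0.6.0 for the processing. No track, read count or other value of a library was analysed here, so no comparison between the groups of libraries was made and depth does not enter. Shares depend on the letters of the reference only.

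Runs were expanded to positions on the R64 sequence and annotation from RefSeq, whose chromosome XII has 1078177 bp. Shares are masked positions over the length of a part, per strand or over both. The deposited mask is wider than the written criteria, which were recomputed as an alternative. Tiles were cut without overlap from the sequence on each side of the locus. Stretches of 50 bases ending at each position were counted in the whole genome on both strands. Calculations used Python 3.11.15 with numpy 2.4.6, alignments Biopython 1.88 and figures matplotlib 3.10.9. The functions that expand runs to positions and recompute the written criteria were tested on simulated data with known answers. The other calculations were not tested in this way.

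Genes named are all annotated rDNA parts, the ASP3 copies and TAR1, and, of the other genes, those with the highest and lowest masked sense share. The Ty1 element with its gene and ARS1200-1 are exceptions, picked once their values were known. Members and lists were chosen with earlier results of these data known. Other alternatives counted only runs of at least 4 positions, moved the borders of the locus or the tiles, counted runs in place of positions, took each copy alone, aligned the copies or changed the windows.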

Additional observations from a re-analysis of the deposited data

How the results depend on the processing

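Of 34 values under other settings, 16 were counted as close to the reported value, 17 as moved and 1 as changed in sign. For shares, close meant within the binomial counting interval of the reported value, used only as a yardstick. This tally is no measure of robustness. The 35S copies and the ASP3 coding sequences are identical in the reference, so settings that compare these copies could not change the value. Values in runs per kb were counted as moved because of their unit. Counts of mature ends by the written criteria within 50 or 100 bp were set against the 2 masked ends. By the written criteria the masked share of the locus was 0.998%, its difference from the rest of chromosome XII -0.174 percentage points and that of transcribed minus spacer sequence -2.05. These changes follow from a narrower mask. With only runs of at least 4 positions the same values were 1.23%, -0.235 and -2.45. In runs per kb, the locus minus the rest was -1.75, and 35S sense minus antisense -0.583. With shifted tiles, 1 was below the locus. In mature rRNA alone the 35S strand difference was 0.0934 percentage points. The transcribed minus spacer difference was -2.35 with 5S counted as spacer, -3.84 with mature rRNA only, -4.13 for the first copy and -1.35 for the second. With 50 bases added, 5S copies differed by up to 30 masked positions, in place of 0. Mature ends with a masked sense position nearby numbered 4 within 50 bp and 11 within 100 bp, in place of 2. By the written criteria, a combination chosen after seeing the data, they numbered 2 within 50 bp and 3 within 100 bp, and the antisense positions within 50 bp behind RDN5-2 to RDN5-5 fell to 6, in place of 10. With 20 bases in place of 50, 14% of masked positions were in sequence found once. The 35S copies and the ASP3 copies kept 0 differences under each alternative run. No paired analysis was possible because the list has no sample columns and no test was made.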
